A study of Mus musculus with 28 samples.

Results

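The osteoblast is the bone-forming cell, and in the face most osteoblasts arise from the cranial neural crest. The 9 genes described here are those named in a list and found by symbol in a RefSeq gene table of mouse assembly GRCm38.p6, out of 21887 protein-coding genes in all. There were 5 regulators, namely the transcription factor genes Runx1, Runx2, Runx3 and Sp7 and the partner gene Cbfb, and 4 genes of the mineralising matrix, namely Alpl, Spp1, Ibsp and Bglap. The measurement was 1 list of H3K27ac intervals. H3K27ac, acetylated lysine 27 of histone H3, marks active promoters and enhancers. The study profiled chromatin of mouse cranial neural crest cells in 28 libraries, of which 4 enter this list. They came from wild-type (WT) embryos of stage E10.5, with a single library from each subpopulation (FNP, Mx, Md, PA2), all made by the same library protocol. The cells were dissected, fixed and collected by fluorescence-activated sorting, per the labels, which name neither the sorting marker nor the strain. The other 24 libraries (WT, Ezh2cKO and HoxA2OE genotypes and other antibodies) were not analysed here.

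The authors merged the reads of the 4 libraries before intervals were called, so each value belongs to the pool. No interval can be assigned to a subpopulation, no value has a replicate error, and no test was possible. Acetylation in fewer cells and weaker acetylation in all cells cannot be told apart. The list gave 125826 intervals a score, with a median of 111, quartiles of 75 and 253 and a lowest value of 31. The file states no unit for the score. By the convention of the caller it is scaled from a q-value, so it also depends on the pooled depth and on the background, and a high or low score below is a rank within this list and not an amount of acetylation. Marker genes were read beside the cell label, where 65.0% of all protein-coding genes had an interval within 1 kb of a gene end. All 8 cranial crest mesenchyme markers had one, with highest scores from 87 at Prrx1 to 4697 at Prrx2. Of the blood markers 3 of 10 did, with Gata1, Gfi1b, Hba-a1, Hbb-bt and Hbb-y at 0 inside and at the ends, and a highest score of 1492 at Spi1. Itga2b and Ptprc had none at an end, but highest scores of 961 and 127 inside. Sensory neuron and glial markers had one in 6 of 7 (highest score 1024), endothelial markers in 5 of 6 (435), epithelial markers in 3 of 6 (1367) and cartilage markers in 4 of 4 (2012). Since the shares of neuronal and glial, endothelial and cartilage markers also lay above 65.0%, the counts alone do not settle which cells the pool held.

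Runx proteins bind DNA through the Runt domain, and Cbfb, which does not bind DNA itself, pairs with them and strengthens that binding. Runx2 is required for osteoblast formation, and Sp7 (osterix) acts downstream of it. Runx1 is best known in blood formation and Runx3 in sensory neurons and lymphocytes. Each Runx gene is known to be transcribed from a distal promoter at its outer 5′ end and from an internal promoter, and the resulting proteins differ at their N terminus. Alpl encodes the phosphatase that releases phosphate for mineral, and Spp1 (osteopontin), Ibsp (bone sialoprotein) and Bglap (osteocalcin) are secreted into bone matrix, Bglap late in osteoblast maturation.

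All 5 regulators had an interval inside the gene, and of the 4 matrix genes Alpl alone did. Over all protein-coding genes, 73.1% had one. A score of at least 1000 inside was reached by 2 of the 9, Cbfb and Runx2, where 48.8% of all genes reached it. The highest score inside was 7775 at Cbfb, 2870 at Runx2, 746 at Runx3, 723 at Runx1, 461 at Sp7 and 316 at Alpl. The highest scores of the 5 regulators thus did not overlap those of the 4 matrix genes, of which Spp1, Ibsp and Bglap had no interval. Where the regulators stood among all genes depended on whether the ends were included. Inside the gene their median highest score was 746, and that of all protein-coding genes was 900 (upper quartile 3546). With intervals within 1 kb of the ends added, the median was 2870 for the regulators and 1068 for all protein-coding genes, so the order turned. That median is a Runx2 interval beside the start of the overlapping gene Supt3. Without intervals at ends of other genes the highest score inside Runx2 was 1153. The 1068 was not recomputed in that way, so the values are not like measures. The interval that sets the value of Sp7 also lies at an end of the non-coding gene Gm36246. Without it Sp7 would stand at 461. With the intervals at Supt3 and Gm36246 left out, the middle regulator would be Runx3 at 746, under the 1068. The turned order thus rests on those intervals. With all intervals inside and within 1 kb of the ends counted, 93.9% of all genes were lower than Cbfb, 68.4% than Sp7, 67.1% than Runx2, 46.1% than Runx3 and 45.8% than Runx1. Gene length differed between the groups, with a median of 57.3 kb for the regulators and 9.06 kb for the matrix genes. Among the 2000 protein-coding genes nearest in length, 64.8% had an interval inside for Spp1, 77.1% for Ibsp and 12.5% for Bglap, whose gene is 0.972 kb long. For the regulators that share was 97.85% for Runx1 and Runx2, 92.45% for Runx3, 90.25% for Cbfb and 73.7% for Sp7. An interval inside was thus common at the lengths of the regulators. A lower highest score inside was held by 27.55% for Runx1, 32.3% for Runx3 and 44% for Sp7. It was held by 63.6% for Runx2 and 92.2% for Cbfb.

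**Figure D1:**
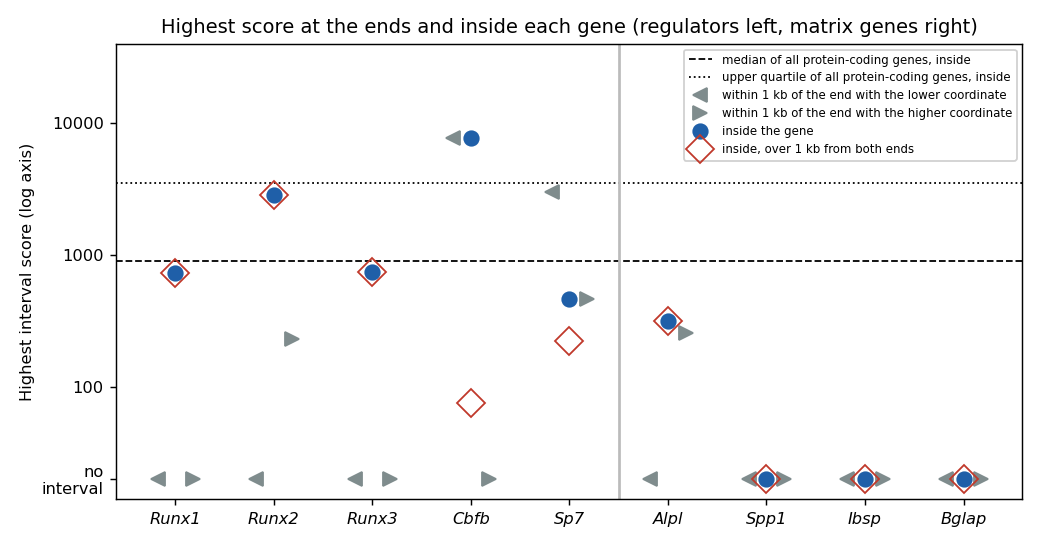
Highest score (log axis) inside each of the 9 genes, over 1 kb inside from both ends, and within 1 kb of each outer end; symbols at "no interval" have none, and lines give the median (900) and upper quartile (3546) of all protein-coding genes. Cbfb has its highest score at an end, Runx1, Runx2 and Runx3 have theirs inside, and Spp1, Ibsp and Bglap have no interval at either place.

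Outer ends and the interior gave different pictures of the same genes. An interval lay within 1 kb of an annotated outer end of 4 of the 9 genes, namely Runx2, Cbfb, Sp7 and Alpl, where 65.0% of protein-coding genes had one. When intervals inside the gene and over 1 kb from both ends were counted, 6 of the 9 had one, adding Runx1 and Runx3, where 41.2% of protein-coding genes did. Longer genes have more room for such intervals, and that share was not computed for genes of similar length. Runx1, Runx2, Runx3, Cbfb and Alpl are 47.3 to 318.8 kb long, where the median of all protein-coding genes was 17.2 kb. The end counts depended on the window. With 2.5 kb, 7 of 9 genes had an interval near an end, with Runx3, Spp1 and Bglap added, where 70.8% of all genes did. When the interval had to cover the end base, only Runx2 had one, where 32.6% of all genes did.

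Runx1 (chromosome 16, 92601466 to 92826074, minus strand) had an interval at its internal start and none at its outer one. The RefSeq promoter table lists an outer start at 92826074 and an internal start at 92697329, 128.7 kb into the gene. No interval lay within 1 kb of the outer start, and the nearest, with a score of 92, was 3.49 kb downstream. At the internal start an interval of 1249 bp with a score of 723 (92697508 to 92698756) began 179 bp upstream. It was the highest of 29 intervals inside the gene, of which 20 scored under 100. The next were 672 at 92605519 to 92606178, 220.2 kb from the outer start, 359 at 92644070 to 92645213, 202 at 92754644 to 92754984 and 124 at 92738023 to 92738469. Upstream of the outer start the first interval lay 18.9 kb away, with a score of 664 and a width of 1576 bp (92844929 to 92846504). Runx1 is a blood regulator. Of the 10 blood markers above, Spi1, Klf1 and Tal1 had highest end scores of 1492, 1480 and 224, and the other 7 had no interval at an end. Of those 7, Itga2b and Ptprc had intervals inside, with highest scores of 961 and 127, and the rest had none. The part of blood cells in the Runx1 intervals was not tested.

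Runx3 (chromosome 4, 135120645 to 135177990, plus strand) showed the same arrangement. Its outer start had no interval within 1 kb, and the nearest (score 163) lay 8.31 kb downstream. Its internal start, at 135152545 and 31.9 kb into the gene, had 2 intervals within 1 kb, with scores of 213 (135152240 to 135152550, which covers the start) and 176 (135152750 to 135152996), 199 bp apart. The gene held 8 intervals. The highest, 746, lay past the internal start, 46.1 kb from the outer one (135166310 to 135167262), followed by 433 at 135146488 to 135146916 and 278 at 135175331 to 135175896 near the 3′ end. The remaining intervals scored 163, 100 and 53. Runx3 is known in sensory neurons. The 7 markers of sensory neurons and glia had a median highest end score of 115, from 0 at Ntrk3 to 1024 at Isl1. The part of such cells in the Runx3 intervals was not tested.

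Among the 8 members in the promoter table, 3 had an interval within 1 kb of an outer start (Runx2, Cbfb and Alpl), where 64.3% of genes did. Of the 4 with an internal start listed, 3 had one there (Runx1, Runx3 and Alpl), where 63.3% of genes did. Of 1332 protein-coding genes with both an outer and an internal start in the promoter table, 15.2% had an interval at the internal start only, as Runx1 and Runx3 did. Both starts were marked in 44.8%, as in Alpl, neither in 13.4%, as in Spp1, and the outer one alone in 26.6%. The starts of Runx1 and Runx3 also differed in sequence. The 250 bases before each start, from the RefSeq promoter table (GRCm38.p6), are shown because they set the unmarked outer starts beside the marked internal ones. Each is written 5′ to 3′ in the direction of transcription, with every CpG in capitals. They lie at chr16:92826075-92826324 and chr16:92697330-92697579 for Runx1, and at chr4:135120395-135120644 and chr4:135152295-135152544 for Runx3.
Runx1 outer start, no interval: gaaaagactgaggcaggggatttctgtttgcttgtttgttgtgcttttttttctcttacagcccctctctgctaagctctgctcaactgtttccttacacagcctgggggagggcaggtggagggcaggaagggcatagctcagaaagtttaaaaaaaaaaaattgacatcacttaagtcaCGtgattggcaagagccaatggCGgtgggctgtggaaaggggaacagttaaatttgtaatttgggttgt
Runx1 internal start, score 723: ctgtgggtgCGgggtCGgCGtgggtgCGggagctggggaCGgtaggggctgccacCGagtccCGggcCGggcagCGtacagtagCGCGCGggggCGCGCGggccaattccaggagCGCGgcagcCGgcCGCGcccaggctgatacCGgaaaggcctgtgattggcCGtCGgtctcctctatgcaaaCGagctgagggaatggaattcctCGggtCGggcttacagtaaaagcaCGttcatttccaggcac
Runx3 outer start, no interval: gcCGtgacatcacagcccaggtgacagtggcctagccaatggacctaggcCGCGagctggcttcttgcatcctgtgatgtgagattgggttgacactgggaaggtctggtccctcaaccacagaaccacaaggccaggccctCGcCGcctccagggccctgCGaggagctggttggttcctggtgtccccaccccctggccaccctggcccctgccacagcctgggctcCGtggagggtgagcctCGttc
Runx3 internal start, score 213: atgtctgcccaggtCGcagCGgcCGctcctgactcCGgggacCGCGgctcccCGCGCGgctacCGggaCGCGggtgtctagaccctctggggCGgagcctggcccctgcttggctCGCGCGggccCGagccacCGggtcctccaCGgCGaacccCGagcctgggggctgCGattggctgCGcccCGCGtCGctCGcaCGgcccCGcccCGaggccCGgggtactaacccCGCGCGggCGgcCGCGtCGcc
The outer stretches hold 2 and 8 CpGs and the internal ones 27 and 38. Over the 300-base windows of the table, which run 50 bases past the start, the ratio of observed to expected CpG was 0.14 and 0.26 at the outer starts and 1.01 at both internal ones.

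Starts over the whole genome differed in the same direction. Of 21263 listed starts of protein-coding genes, 14.1% were marked where the CpG ratio was under 0.2 and 97.5% where it was 0.8 or more, with 38.5%, 74.3% and 93.1% in the steps between. The 12 starts listed for 8 of the 9 members (Sp7 is not in the table) fell on both sides. All 4 starts with a ratio over 0.6 were marked, namely the outer starts of Cbfb and Alpl and the internal starts of Runx1 and Runx3. Of the 8 with a ratio under 0.4, 6 were unmarked, namely the outer starts of Runx1, Runx3, Spp1, Ibsp and Bglap and the internal start of Spp1. The other two, the outer start of Runx2 (ratio 0.14, score 231) and the internal start of Alpl (ratio 0.18, score 194), were marked although poor in CpG.

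**Figure D2:**
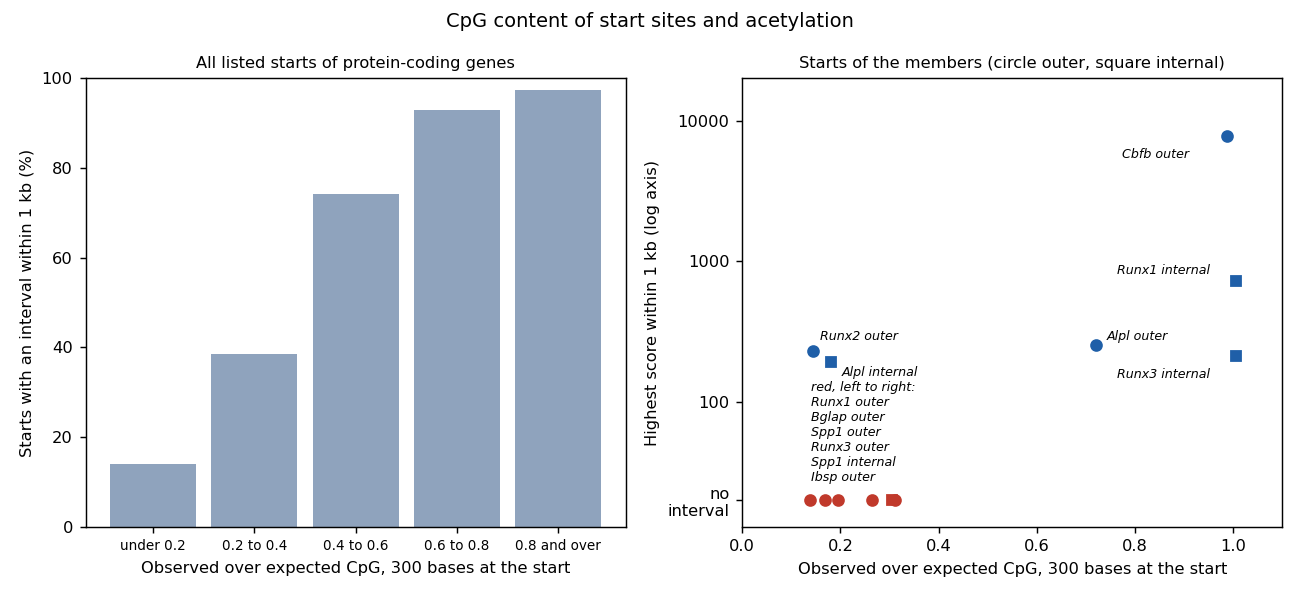
Left, share of all listed protein-coding starts with an interval within 1 kb, by the ratio of observed to expected CpG in the 300 bases at the start; right, the highest score within 1 kb (log axis) of the members' 12 listed starts against that ratio, red where there is no interval. The share rises from 14.1% to 97.5%, and the marked starts of Runx2 and Alpl (internal) sit among unmarked ones at a ratio under 0.2.

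The 3 outer Runx starts shared a run of bases that no other listed start held. The run is 18 bases long and carries ACCACA, the reverse complement of the Runx core motif TGTGGT, 2 times. It is shown, with that motif in capitals, because it joins the outer starts that differ in acetylation.
Shared by Runx1, Runx2 and Runx3: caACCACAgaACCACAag
It begins at base 27 after the start in Runx1, at base 22 after it in Runx2 and 136 bases before it in Runx3. Of the 3 starts, Runx2 alone was marked. TGTGGT on either strand occurred in 15.0% of the 300-base windows, and among the members also at the outer starts of Spp1 and Bglap. A match describes letters and is not a bound site.

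Runx2 (chromosome 17, 44495987 to 44814797, minus strand) held the most intervals of the 9 genes, 43 over 318.8 kb. Of the 2000 genes nearest in length 95.1% held fewer, and their median was 12. Most had low scores, since 23 scored under 100 and the median was 91. The only listed start, at 44814627 near the outer end, had an interval of 780 bp with a score of 231 (44814697 to 44815476), beginning 70 bp upstream. The highest scores lay further in. The top pair, 2636 (44776583 to 44777081) and 2870 (44777254 to 44777912), lay 37.6 kb inside the outer end, on either side of the start of Supt3 at 44777166, whose gene overlaps Runx2 by 37.7 kb on the opposite strand. They ended 85 bp before and began 88 bp after that start, so the highest scores in Runx2 cannot be told apart from those of the promoter of Supt3, which encodes a subunit of a transcriptional co-activator complex.

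Away from the ends of Supt3, the highest score in Runx2 was 1153 (44735726 to 44736726), which lies beside an interval of 527 (44734434 to 44735552) with 173 bp between them. These intervals of 1001 and 1119 bp lie 78.6 and 79.8 kb into the gene. No internal start is listed for Runx2 at any place, so its internal promoter could not be placed among the intervals. For comparison, the pair at the start of Supt3 was separated by 172 bp. Another group at 44617901 to 44619809 held scores of 503, 745 and 167, an interval of 351 (44683250 to 44683539) lay 131.4 kb into the gene, and one of 312 (44505717 to 44506400) lay 308.7 kb into it. Of the 43 intervals, 8 lay in the stretch shared with Supt3 and 35 outside it. In the flanks of Runx2, none of the 32 intervals within 200 kb lay at an end or start of another protein-coding gene, and the highest scored 365. The highest scores of the locus were therefore inside the gene.

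**Figure D3:**
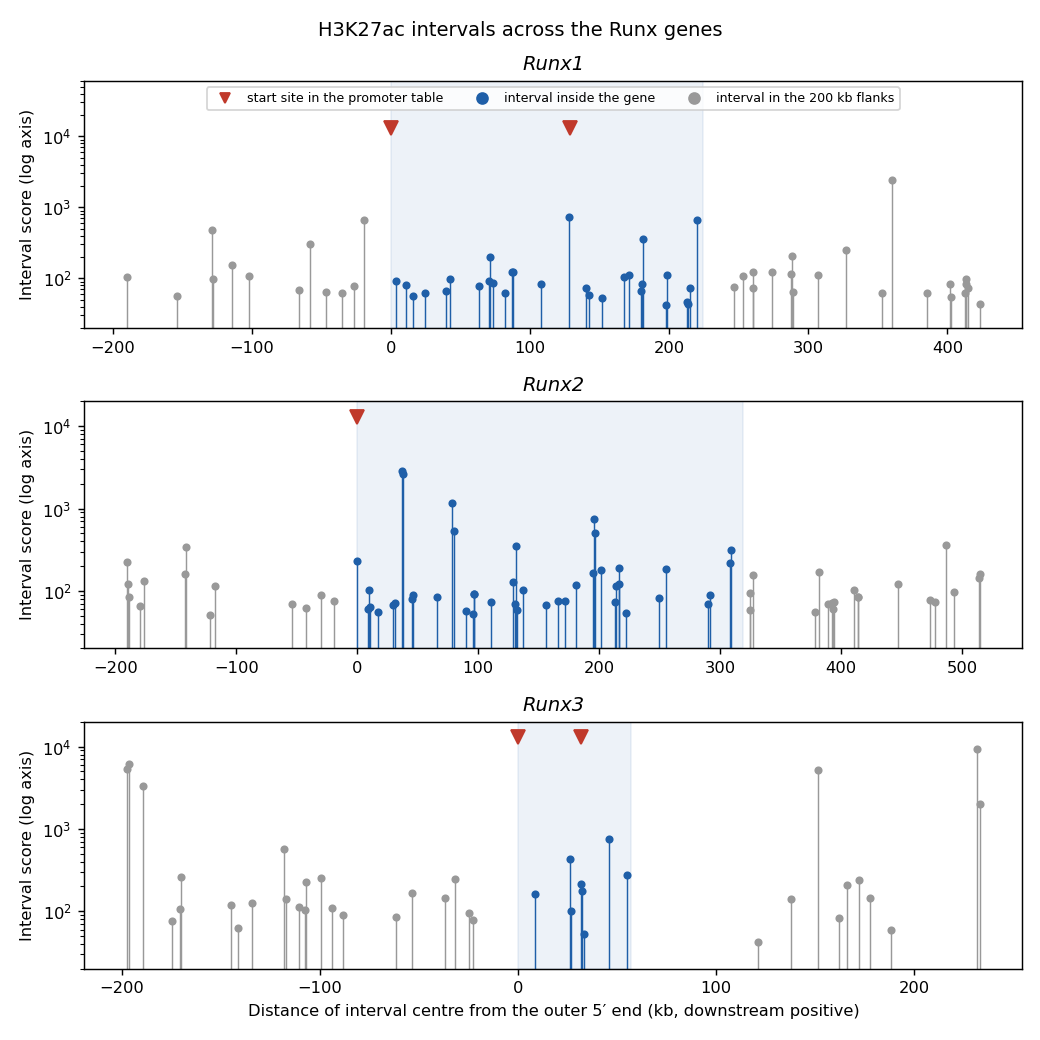
Score (log axis) of every interval in Runx1, Runx2 and Runx3 and their 200 kb flanks against distance from the outer 5′ end; shading marks the gene and triangles the starts in the promoter table. Runx1 and Runx3 lack an interval at the outer start, and the highest pair of Runx2 lies about 38 kb inside, at the start of Supt3.

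Cbfb (chromosome 8, 105170674 to 105217989, plus strand) had the simplest pattern. An interval of 1154 bp with a score of 7775 (105170730 to 105171883) began 56 bp after the start, and another with a score of 502 lay 306 bp before it. The first was above 91.7% of protein-coding genes marked at an end. It lay at a CpG-rich start with 4 copies of GGGCGG, the box bound by Sp factors, on either strand. At least 1 copy was held by 46.2% of listed starts, and the share with 4 was not computed. Only 1 other interval, with a score of 75, lay in the remaining gene. A broad interval of 1836 bp with a score of 1423 lay 5.12 kb upstream.

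Sp7 (chromosome 15, 102356603 to 102367035) had intervals at both outer ends, as 9.91% of protein-coding genes did. The scores were unequal. At the end with the lower coordinate an interval of 1499 bp with a score of 3015 (102355051 to 102356549) ended 54 bp outside the gene, and it also lay at an end of the non-coding gene Gm36246. At the other end the score was 461 (102366595 to 102366923), and an interval of 223 lay between them. The highest score at Sp7 was therefore outside the gene, and its strand is not in the promoter table. With intervals within 1 kb of the ends added to those inside, the highest score of Sp7 moved from 461 to 3015. Beyond the higher end an interval of 352 lay 3300 bp away.

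Alpl (chromosome 4, 137741731 to 137796384, minus strand) was the only matrix gene with intervals inside. It held 7, with scores of 254 beside the outer start (137795894 to 137796316), 298 and 316 further in (137783609 to 137784174 and 137773812 to 137774196), 194 beside the internal start and 53 to 102 in the rest. Of genes nearest in length, 85.8% held fewer intervals, but only 23.7% had a lower highest score. Its intervals were thus many for its length and low in score. The same held for Runx1 (90.15% held fewer, 27.55% had a lower highest score) and Runx3 (89.25% and 32.3%).

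Spp1 and Ibsp lie in 1 cluster of bone and tooth matrix genes on chromosome 5, in the order Dspp, Dmp1, Ibsp, Mepe and Spp1 over 270.4 kb. The cluster held 23 intervals with a median score of 90 and a highest of 475. Inside its 5 genes there were 2 intervals, 145 in Dmp1 and 89 in Mepe. Spp1 (104435111 to 104441053, plus strand) had none inside and none within 1 kb of either listed start. Its nearest interval, with a score of 249 (104432846 to 104433130), lay 1.98 kb upstream. It was the first of 13 intervals within 50 kb upstream, with scores of 70 to 475. The highest of them lay 27.3 kb from Spp1 (104407408 to 104407840). Within 50 kb downstream there were 2 intervals, 70 and 7641, the latter at the start of Pkd2. Intervals were thus more frequent upstream of Spp1 than downstream of it, without one at the gene. Ibsp (104299287 to 104311472, plus strand) had 3 intervals 4.54 to 5.55 kb upstream, with scores of 109, 46 and 116, and none on the other side for 19.9 kb.

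Bglap (chromosome 3, 88383495 to 88384466, minus strand) is 1 of 3 neighbouring copies with Bglap2 and Bglap3, and none of the 3 held an interval inside. Each copy had an interval at nearly the same distance below its lower end, which is the 3′ side of Bglap. It began 1.41 kb below Bglap with a score of 397 (88381712 to 88382083), 1.40 kb below Bglap2 with 510 (88375889 to 88376335) and 1.41 kb below Bglap3 with 377 (88366795 to 88367210). Bglap2 and Bglap3 had further intervals closer in, with scores of 349, 76 and 59. The interval of 397 also lay within 1 kb of an end of the annotated gene Gm6821. Those of 510, 349 and 76 lay within 1 kb of an end of Gm21956. Reads from such near-identical copies can be placed at more than 1 copy or dropped, and how they were handled is not given in the sources used here, so the values of the 3 copies are uncertain. No interval lay at the start of Bglap, and the nearest upstream one, of 56, lay 9.97 kb from the gene.

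The upstream stretches of Cbfb and Bglap are shown because they set the highest-scored start among the members, which is rich in CpG, beside an unmarked start of a matrix gene, which is poor in CpG. They are from the same table (chr8:105170424-105170673 and chr3:88384467-88384716), 5′ to 3′ with CpGs in capitals.
Cbfb outer start, score 7775: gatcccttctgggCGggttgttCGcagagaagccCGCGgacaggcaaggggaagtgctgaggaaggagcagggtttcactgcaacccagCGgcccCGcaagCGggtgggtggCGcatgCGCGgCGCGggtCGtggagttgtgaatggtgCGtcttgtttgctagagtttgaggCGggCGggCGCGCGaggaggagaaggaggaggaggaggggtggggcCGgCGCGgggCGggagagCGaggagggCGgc
Bglap outer start, no interval: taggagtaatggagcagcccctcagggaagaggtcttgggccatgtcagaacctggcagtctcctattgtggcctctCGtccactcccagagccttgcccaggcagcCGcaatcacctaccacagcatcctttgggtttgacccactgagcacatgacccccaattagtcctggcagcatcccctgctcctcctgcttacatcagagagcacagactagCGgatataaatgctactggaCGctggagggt
The first holds 25 CpGs and the second 4. TATAAA, the TATA box core, was present on either strand in 12.6% of all listed windows. Among the members it was found at the outer starts of Spp1, Ibsp and Bglap and the internal start of Alpl. It was found at none of the Runx or Cbfb starts. Matches were counted at any position in the 300-base window, so a match is not a placed TATA box. The matches of Spp1 and Alpl lie far upstream of the start, and those of Ibsp and Alpl are on the opposite strand. Only that of Bglap lies close to the start in the direction of transcription. No contrast in TATA boxes between matrix genes and regulators can be read from these matches.

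**Figure D4:**
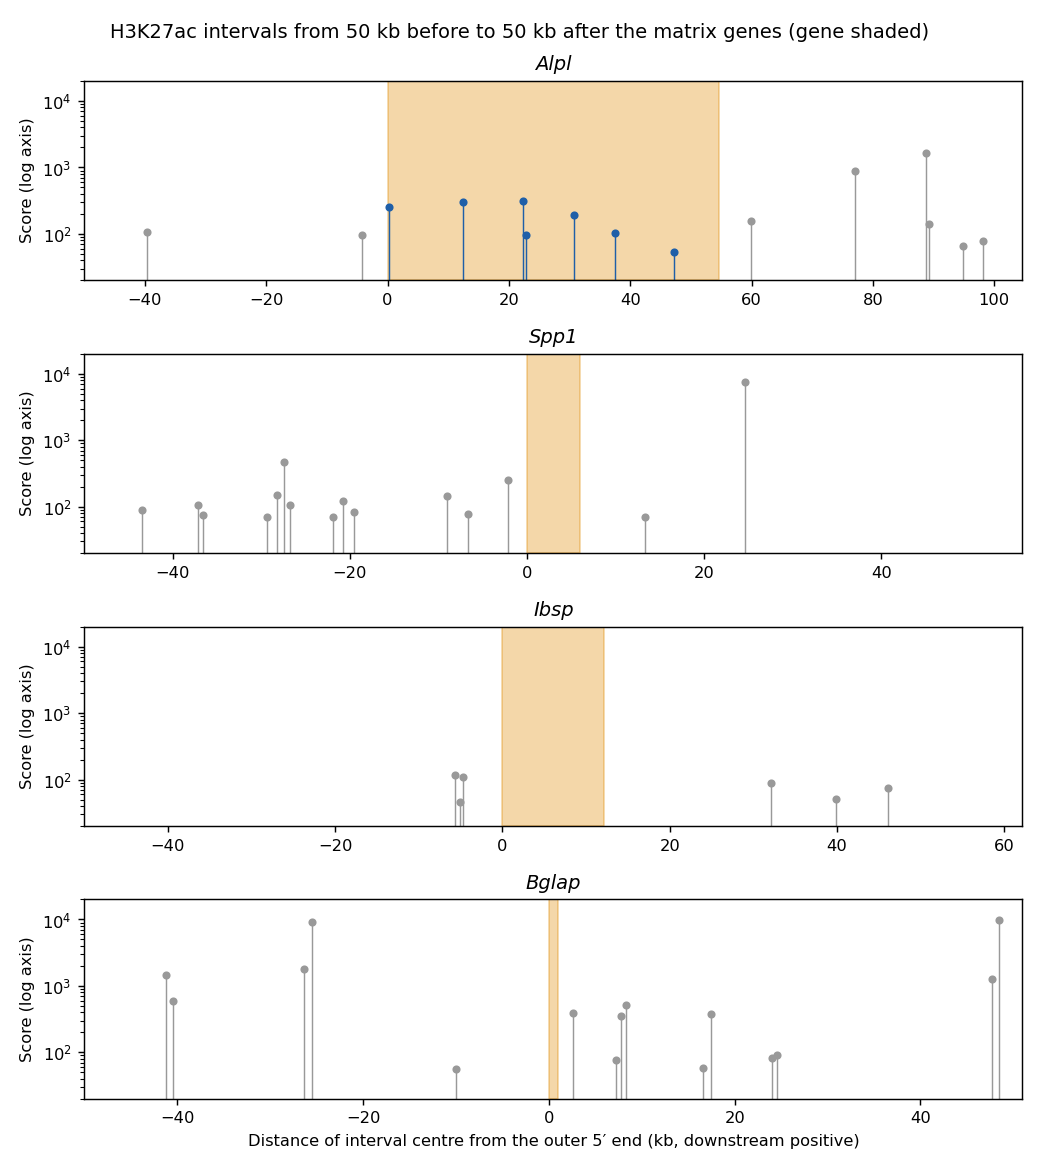
Score (log axis) of intervals from 50 kb before to 50 kb after the 4 matrix genes, by distance from the outer 5′ end, with the gene shaded and blue marking intervals inside it. Alpl holds 7 intervals, while Spp1, Ibsp and Bglap hold none and Spp1 has a run of 13 upstream.

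The flanks did not separate the groups as the genes did. Within 200 kb outside the gene there were 26 to 53 intervals for the regulators (median 32) and 27 to 46 for the matrix genes (median 42), where the median of all protein-coding genes was 25 and the quartiles 13 and 37. The groups overlapped. All 9 genes lay above the median of all genes, though some only just. Of all genes 50.5% had fewer flank intervals than Cbfb, 52.7% than Spp1 and 94.9% than Sp7, the highest. The density of intervals over gene and flanks was 1.19 (Cbfb) to 2.74 (Sp7) times that of the chromosome. The chromosome value includes stretches without genes, and the share of all genes above it was not computed. Many flank intervals lay at neighbouring genes. Intervals at an end or listed start of another protein-coding gene made up 20 of 26 at Cbfb, 27 of 46 at Bglap and 27 of 53 at Sp7, and 0 of 32 at Runx2, 2 of 32 at Runx1 and 4 of 40 at Ibsp. Without them the medians were 27 for the regulators and 26 for the matrix genes. Spp1 and Ibsp shared 26 flank intervals, 96.3% of those of Spp1 and 65.0% of those of Ibsp, so they are not separate observations. When only intervals nearest to the member were counted, the medians were 7 and 2.5, the opposite order to the full flanks.

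**Figure D5:**
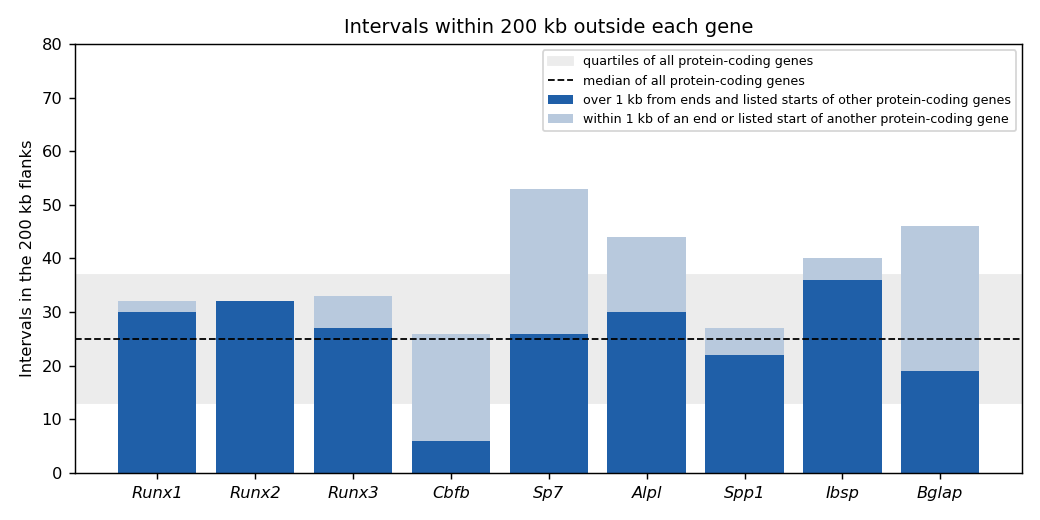
Intervals within 200 kb outside each gene (bars, stacked by whether they lie within 1 kb of an end or listed start of another protein-coding gene); the dashed line is the median of all protein-coding genes (25) and the grey band their quartiles (13 and 37). At Cbfb 20 of 26, at Bglap 27 of 46 and at Sp7 27 of 53 lie at an end or start of another protein-coding gene, and at Runx2 none does.

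For 8 of the 9 genes the highest flank score lay within 1 kb of an end of another protein-coding gene. The share of all protein-coding genes for which this holds was not computed. The highest flank score was 10056 at Pcbp2 for Sp7, 9977 at Tmem79 and Smg5 for Bglap, and 9406 at Srrm1 for Runx3. For Spp1 and Ibsp it was 9138 at Thoc2l, and for Alpl 8353 at Usp48. For Cbfb it was 5305 at 4931428F04Rik and Exoc3l, and for Runx1 2440 at Rcan1. At Runx2 the highest flank score, 365, lay at no gene end. Of the 32 flank intervals of Runx2, 12 were nearest to Runx2 among protein-coding genes. Away from ends and listed starts of other protein-coding genes the highest flank scores ranged from 365 at Runx2 to 3015 at Sp7, the interval that also lies at an end of Gm36246. Of the nearest neighbours, Setd4 lay 757.4 kb above Runx1 and Clic6 60.2 kb below it, and Clic5 lay 215.8 kb below Runx2, so no protein-coding gene ended within 200 kb above Runx1.

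Other genes of the same pathway, in lists chosen with earlier results of these data known, give the setting. An interval lay at a gene end, as in 65.0% of all protein-coding genes, in 18 of 19 genes upstream of osteoblasts, with a median highest score of 1702 against 610 for all genes. Lrp6 and Lrp5, co-receptors of Wnt signalling, had 15719 and 4868, Ctnnb1 (beta-catenin) 9141 and Bmpr1a, a BMP receptor, 8670, and Ihh, a hedgehog ligand, had none. Of 15 partners of the osteoblast factors, 14 had one (median 2889). The BMP effectors Smad5 and Smad1 had 12938 and 6220, Sp3 10270 and Atf4, a regulator of late osteoblast genes, 9246. Mef2c had none at an end and 15 inside. Matrix genes other than the members were lower, with 16 of 20 marked and a median of 267.5. Fn1 (fibronectin) had 5023, Col1a2 (type I collagen) 1532, Col11a1 1347 and Omd (osteomodulin) 1343. Dmp1, Dspp, Phex and Sost, genes of mineralising cells and osteocytes, had none at an end. All 7 genes of mineral handling were marked (median 1875), with the phosphate transporter genes Slc20a2 and Slc20a1 at 10617 and 5507, Smpd3 at 2666 and Ank at 1875. Of 7 osteoclast signals and products 6 were marked (median 619), with Csf1 at 3073, Tnfrsf11b (osteoprotegerin) at 875, Ctsk at 777 and Tnfrsf11a at 619, and Acp5 had none at an end.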

How the data were processed

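H3K27ac libraries of 4 sorted WT E10.5 populations were sequenced, and the authors deposited 1 interval list from their merged reads, with 1 score per interval. Per the text deposited with the list, MACS2 2.1.3.3 called intervals at a q-value cutoff of 0.001 from reads extended to 141 bp, keeping duplicate reads, and no control is named. Piled-up reads can therefore enter as intervals. Bowtie 1.1.1, bcl2fastq 2.17 and the build GRCm38 (also written mm10) are named in the submitters' processing notes. Read depth is unknown.

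Intervals were compared with RefSeq gene and promoter tables of GRCm38.p6 (Python 3.11.15, pandas 2.3.3) on chromosomes 1 to 19, X and Y. An overlap of at least 1 bp counted, windows were 1 kb around ends and starts, and flanks 200 kb. An outer start lies within 1 kb of the 5′ end, and an internal one over 1 kb from both ends. Overlap counting was checked on simulated intervals. With 1 pooled list, no test was run, and counts of members are set against percentages of all protein-coding genes. The members and lists were chosen with earlier results of these data known. By rule, every interval was given for genes with 10 or fewer and the 5 highest otherwise. Of the lists, the 4 highest at an end and those with none were named. The CpG comparison, the shared run and the stretches around Spp1 and Bglap were chosen after their values were seen. Alternatives changed the score minimum, overlap, window, flank and groups. Interval sequences were not read here.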

Additional observations from a re-analysis of the deposited data

How the results depend on the processing

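No paired analysis was possible because the list pools 4 libraries into 1 value per interval, and no library could be left out for the same reason. The counts of members with an interval inside (6) and away from both ends (6) stayed within 1.5 times under every alternative run on them. The 3 members marked at an internal start stayed 3 under the score and overlap alternatives. The window was not changed for that count. The nearest interval lay 179 bp from the internal start of Runx1 and 549 bp from that of Alpl, and 1 covered that of Runx3. A narrower window can therefore lower the count. The count at outer ends (4) was 1 when the end base had to be covered and 7 with 2.5 kb. Flank medians, given for all 9 members, the regulators and the matrix genes (33, 32 and 42 in the setting of the report), were 21, 21 and 22 with the higher-scored 50% of intervals, 17, 16 and 23 with flanks of 100 kb, 8, 8 and 11.5 with 50 kb and 5, 7 and 2.5 with intervals nearest to the member. With scores of at least 100 the median of the matrix genes was 24.5. The median highest score of the regulators was 734.5 without Cbfb, and 2870 with intervals within 1 kb of the ends, an alternative chosen after seeing the data, as was leaving out intervals at ends of other genes, which moved the highest score of Runx2 from 2870 to 1153. The cause was not tested beyond the construction of each alternative. The unknown depth limits what an absent interval shows: acetylation below the limit of the caller was not detectable in this list.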
